A study of Mus musculus with 7 samples.

Results

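The genes described here are 10 genes of cytokine receptor signalling through the JAK-STAT pathway: Socs1, Socs2, Socs3, Cish, Pim1, Pim2, Stat3, Stat5a, Stat5b and Jak3. They were taken by name, with every probe set that the platform annotation assigns to that single symbol, which gave 23 probe sets; 18194 genes have such a probe set on the array. Where a gene had several probe sets, the one with the highest mean over the arrays stood for it. It was tested where this probe set reached log2 5 on at least 2 of the 7 arrays. Of the 10 members 7 met this, of 8203 genes tested in all; Socs1, Socs2 and Cish did not.

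The arrays hold RNA of OT-I cells, CD8 T cells of C57BL/6 background with a transgenic receptor for an ovalbumin peptide. In every group the cells started as CD44lo Ly5.1 OT-I cells labelled with the division dye CFSE, were injected into a host, and were recovered by sorting. Naive cells (n = 2) were undivided cells from the spleen of B6 hosts after 60 h. RIP-OVAhi cells (n = 2) had divided at least 2 times within 60 h in hosts that make ovalbumin under the rat insulin promoter, a model of deletional tolerance, and came from sacral and pancreatic lymph nodes. OCS/LPS cells (n = 2) had divided at least 2 times within 60 h in hosts primed with ovalbumin-coated splenocytes and lipopolysaccharide, and came from spleen. Rag cells (n = 1) had divided at least 2 times in Rag-/- hosts, which make neither T nor B cells, and were taken from spleen after 5 days. Each array carries a pool of 10 mice, or 20 mice for RIP-OVAhi. Tissue therefore cannot be told apart from group for RIP-OVAhi, nor time from group for Rag, and a single Rag array gives no spread of its own.

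Cytokines such as interleukin-2, interleukin-7 and interleukin-6 act through receptor chains that carry Janus kinases (JAKs). Activated JAKs phosphorylate STAT proteins, which enter the nucleus and switch on target genes. Among those targets are the SOCS genes and Cish, whose proteins bind the receptors or the JAKs and shut the signal down, and the PIM kinases, which promote survival and growth. In T cells this loop sets how long a cytokine signal lasts after antigen or in a lymphopenic host.

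STAT dimers are known to bind palindromes of the form TTCNNNGAA, so this motif, which reads the same on both strands, was searched in RefSeq promoters of build GRCm38.p6 from 250 bases before to 50 bases after each annotated start. Of 32851 such windows 8.30% held at least 1 match and 0.457% held 2 or more. Windows were found for 9 of the 10 members, all but Socs2. Cish held 2 matches that do not overlap each other and Socs3 held 1; the windows of Socs1, Pim1, Pim2, Stat3, Stat5a, Stat5b and Jak3 held 0. The related motif with a spacer longer by 1 base, present in 6.95% of all windows, had no match in any member window. The sequences are shown for Cish and Socs3, the members with matches, and for Pim1, the member called in Rag against naive. A match describes letters only and is not a bound site. Capitals mark the TTCNNNGAA matches; the Cish stretch of 30 bases was cut around its matches, which start at bases 1 and 12 counted from the annotated start as base 1, and the Socs3 match starts at base -154. For Pim1, with 2 annotated starts, the upstream one is shown.

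Cish, chr9:107296649-107296678, plus strand: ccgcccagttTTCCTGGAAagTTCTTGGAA

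Socs3, chr11:117969367-117969616, minus strand: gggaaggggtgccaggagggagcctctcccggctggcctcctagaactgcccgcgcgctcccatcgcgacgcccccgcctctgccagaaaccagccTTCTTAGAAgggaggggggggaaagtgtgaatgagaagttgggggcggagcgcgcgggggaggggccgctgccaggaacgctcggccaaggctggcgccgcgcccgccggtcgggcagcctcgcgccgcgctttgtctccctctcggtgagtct

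Pim1, chr17:29490535-29490784, plus strand: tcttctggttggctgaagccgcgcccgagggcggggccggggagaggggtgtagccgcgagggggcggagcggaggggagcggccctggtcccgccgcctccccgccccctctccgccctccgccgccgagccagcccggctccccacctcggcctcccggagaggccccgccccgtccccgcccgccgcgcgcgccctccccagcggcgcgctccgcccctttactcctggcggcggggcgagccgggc

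The Pim1 stretch is 82.4% G and C, the Socs3 stretch 71.6%.

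All values are log2 expression values on the deposited scale, and values under log2 5 are called near background. The array medians ran from 2.97 to 3.08. All 6 T cell marker genes measured were above log2 5 on each array, with Cd8a at 12.59 to 13.23, and the 4 genes of CD4 and regulatory T cells stayed below it. Transcripts of other cell types differed between groups: of 9 myeloid genes, 0 reached log2 5 on the RIP-OVAhi arrays, 2 and 3 on the naive arrays, 3 on each OCS/LPS array and 5 on the Rag array. The difference between 3' and 5' Gapdh control probe sets, which grows as RNA is degraded or shortened in amplification, was 2.59 and 2.43 in naive cells, 2.08 and 2.03 in RIP-OVAhi cells, 1.85 and 1.89 in OCS/LPS cells and 2.21 in Rag cells. The arrays numbered 1 and 2 differed in the sex-linked gene Xist, at 2.67 to 2.74 on the former and 12.73 to 13.01 on the latter. The labels leave it unstated if the pools of a group were set up independently; the p-values therefore cover variation among these arrays, some of which may be technical.

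**Figure D1:**
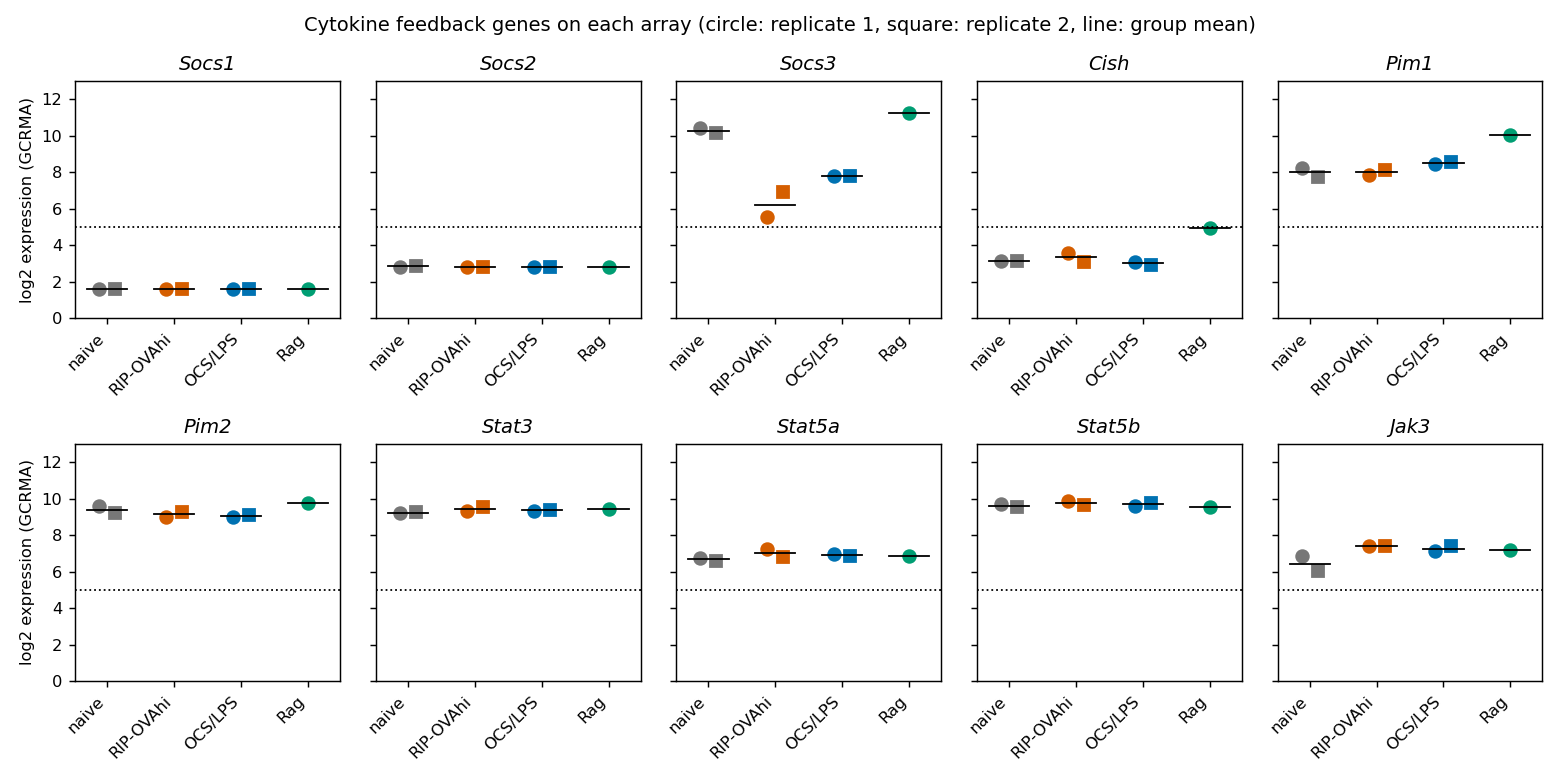
Log2 expression (y axis) of the 10 members on each of the 7 arrays, by group (x axis); circles are replicate 1, squares replicate 2, black lines group means, and the dotted line is log2 5. Socs3 runs from 5.56 on a RIP-OVAhi array to 11.25 on the Rag array, while Stat3, Stat5a and Stat5b stay nearly level and Socs1, Socs2 and Cish stay below the line.

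Socs3, an inhibitor, was lower in both groups that had met antigen than in naive cells, Pim1, a survival kinase, was higher on the Rag array than in every other group, and Jak3, a receptor-bound kinase, was higher in RIP-OVAhi than in naive cells. The Jak3 call was lost under several alternatives, among them the replicate block (adjusted p = 0.0517). Pim1 in Rag against naive and Socs3 in OCS/LPS against naive also lost their calls under some. With no filter on low values their limma adjusted p was 0.0638 and 0.0623. The remaining tested members, Pim2, Stat3, Stat5a and Stat5b, were not called in any comparison, although 1 further Stat3 probe set was. In RIP-OVAhi against naive 2 of the 7 tested members were called, where 29.6% of all tested genes were: Jak3 was higher (18.1% of genes were) and Socs3 lower (11.6%). In OCS/LPS against naive Socs3 was the 1 member called, and it was lower; 32.9% of genes were called and 12.3% were lower. In Rag against naive Pim1 was the 1 member called, and it was higher; 2.73% of genes were called and 2.15% were higher. These comparisons share the naive arrays.

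Against the Rag array, Socs3 and Pim1 were lower both in RIP-OVAhi, where 16.7% of genes were called and 6.9% were lower, and in OCS/LPS, where 18.1% were called and 6.9% were lower. Between RIP-OVAhi and OCS/LPS limma called 0 of the 7, against 2.91% of all tested genes; Socs3 and Pim1, 2 of the 7, had an unadjusted p under 0.05. The median difference of the tested members from naive was 0.16 for RIP-OVAhi, 0.12 for OCS/LPS and 0.38 for Rag, against 0.06, 0.08 and 0.04 over all tested genes. In RIP-OVAhi and OCS/LPS against naive, the share of members called was near or below that of all genes.

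Among the inhibitors, Socs3, which encodes a protein that blocks JAK activity at receptors such as that for interleukin-6, had the widest range of group means of the 10 members. It read 10.42 and 10.15 on the naive arrays, 5.56 and 6.92 on the RIP-OVAhi arrays, 7.80 and 7.82 on the OCS/LPS arrays and 11.25 on the Rag array. No 2 groups overlapped, and the lowest naive value lay above every value of the cells that had met antigen. With 1 or 2 arrays per group, uncalled differences also showed no overlap, among them Stat3 in RIP-OVAhi against naive. The share of all tested genes without overlap was not counted. The OCS/LPS arrays agreed closely, whereas the RIP-OVAhi arrays differed by 1.36. The group means thus spanned 5.01 log2 units, and 1.21% of the 8203 tested genes had a range at least as wide.

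Socs3 fell by 4.05 on the log2 scale in RIP-OVAhi against naive cells (SE 0.42, limma adjusted p = 0.00158), or 16.6-fold. In OCS/LPS cells it fell by 2.48 (SE 0.42, adjusted p = 0.00773), or 5.57-fold. Against the Rag array the difference was -5.01 for RIP-OVAhi (SE 0.51, adjusted p = 0.00307), or 32.2-fold lower, and -3.43 for OCS/LPS (SE 0.51, adjusted p = 0.00984), or 10.8-fold lower. In the order of levels, the neighbours Rag and naive were not separated by the test: their difference was 0.96 (SE 0.51, adjusted p = 0.394), with a 95% interval from -0.29 to 2.21. Neither were OCS/LPS and RIP-OVAhi, at a difference of -1.57 (SE 0.42, adjusted p = 0.143, unadjusted p = 0.00942), with a 95% interval from -2.60 to -0.55.

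The fall in RIP-OVAhi was -4.73 without RIP-OVAhi replicate 2 and -3.37 without replicate 1, called both times. Between arrays of the same number, which match in Xist, the difference of RIP-OVAhi from naive was -4.86 and -3.24, and that of OCS/LPS from naive -2.62 and -2.33. Without RIP-OVAhi replicate 2 the difference between RIP-OVAhi and OCS/LPS was -2.25 and called (adjusted p = 0.0394). Without OCS/LPS replicate 1 or 2 the calls of OCS/LPS against naive (adjusted p = 0.0627 and 0.0673) and against Rag (0.0704 and 0.077) were lost, at nearly the same differences. They were also lost with no filter (0.0623 and 0.0676) and without moderation (0.085 and 0.11).

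The level of Socs3 was read by 3 probe sets. The brighter pair, 1455899_x_at (used above) and 1456212_x_at, are of the type whose probes may also match other sequences. The second of them read 10.24 and 10.08 in naive cells, 6.00 and 6.79 in RIP-OVAhi cells, 7.73 and 7.70 in OCS/LPS cells and 10.90 in Rag cells. In a fit of 16140 probe sets, each on its own, its difference from naive was -3.77 in RIP-OVAhi (SE 0.26, limma adjusted p = 0.000523), where 27% of probe sets were called, and -2.45 in OCS/LPS (SE 0.26, adjusted p = 0.00208), where 32.3% were. Against Rag it was -4.51 for RIP-OVAhi (SE 0.32, adjusted p = 0.00145), where 14.1% were called, and -3.18 for OCS/LPS (SE 0.32, adjusted p = 0.0039). The remaining probe set of Socs3, 1416576_at, was near background throughout, at 3.54 and 3.17 in naive cells, 2.25 and 2.25 in RIP-OVAhi cells, 2.09 and 2.25 in OCS/LPS cells and 4.37 in Rag cells. Naive and Rag were thus the higher groups in every Socs3 probe set, but RIP-OVAhi and OCS/LPS were apart in the brighter pair only. Averaged over the 3 probe sets, the difference from naive was -2.98 in RIP-OVAhi (SE 0.24, adjusted p = 0.000679) and -2.04 in OCS/LPS (SE 0.24, adjusted p = 0.0024).

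**Figure D2:**
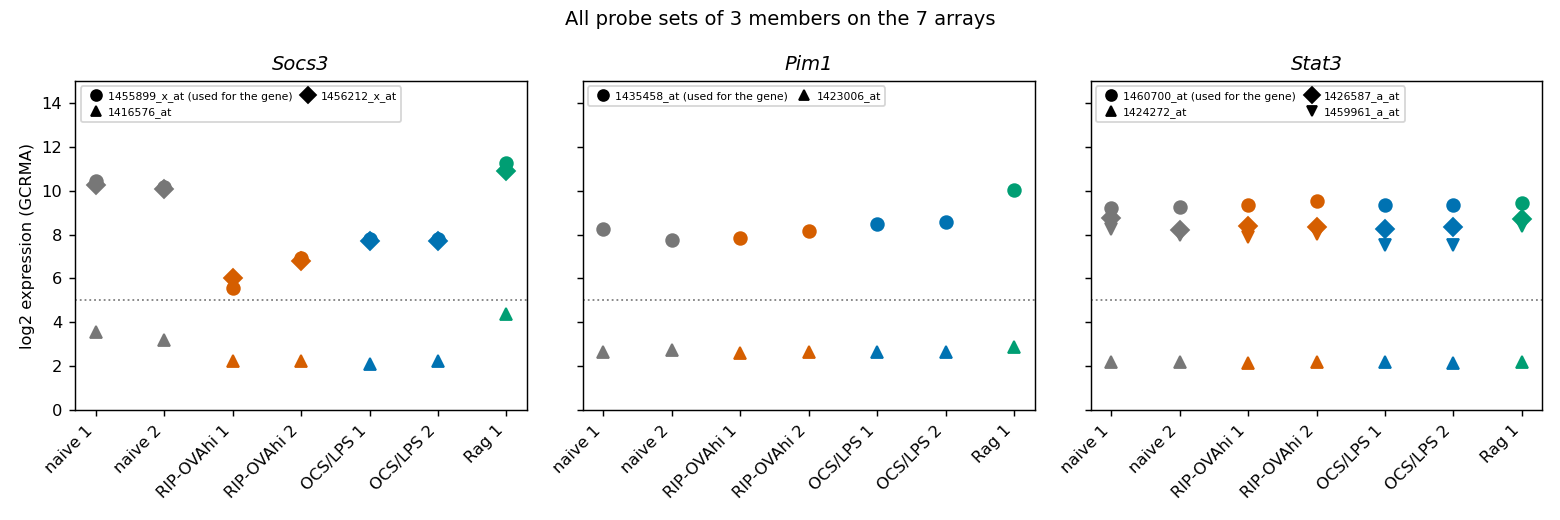
Log2 expression (y axis) of every probe set of Socs3, Pim1 and Stat3 on the 7 arrays (x axis), coloured by group, with a symbol per probe set and a dotted line at log2 5. The brighter pair of Socs3 probe sets follow each other from array to array. Stat3 probe set 1459961_a_at is lower on the OCS/LPS arrays, at 7.50 and 7.54, than on the other arrays, while the used one is nearly level.

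Of the markers of other cells, 3 lists were lowest on the RIP-OVAhi arrays and highest on the Rag array, as Socs3 was. These were the myeloid list, the MHC class II list and the erythroid and platelet list. The log2 of the summed level of the 9 myeloid genes was 8.42 and 9.09 in naive cells, 6.26 and 6.13 in RIP-OVAhi cells, 8.30 and 8.84 in OCS/LPS cells and 9.98 in Rag cells. That of the 5 MHC class II genes was 7.70 and 7.72, then 5.73 and 5.92, then 7.69 and 8.43, then 9.17, in the same order of groups. For the 3 erythroid and platelet genes measured it was 5.59 and 4.75, then 4.22 and 4.22, then 4.54 and 4.54, then 6.85. Only Alas2 among them reached log2 5, on the Rag array (6.65). Csf1r and Itgam, a macrophage receptor and a myeloid integrin, read 2.44 to 2.56 and 2.42 to 2.50 outside the Rag array, where Csf1r read 8.51 and Itgam 2.42. Neutrophil genes were below log2 5 except S100a8 on OCS/LPS replicate 2 (5.28) and on the Rag array (5.23). The sum of the 7 B cell and plasma cell genes had another order, at 8.90 and 9.76 on the naive arrays, 8.51 and 9.01 on the RIP-OVAhi arrays, 9.83 and 10.41 on the OCS/LPS arrays and 7.41 on the Rag array. Between OCS/LPS and naive, from the same organ, the myeloid and MHC class II sums overlapped, while the erythroid and platelet sum was lower in OCS/LPS. The Gapdh 3' to 5' difference, like Socs3, was higher in naive and Rag. The part of these transcripts and of RNA integrity in the Socs3 differences was not tested, and in sorted cell pools fewer expressing cells and less RNA per cell cannot be told apart.

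Cish, an SH2 protein induced by STAT5 that restrains cytokine and antigen receptor signals, was near background on all arrays. It read 3.16 and 3.16 in naive cells, 3.56 and 3.11 in RIP-OVAhi cells, 3.11 and 2.93 in OCS/LPS cells and 4.95 in Rag cells. The Rag array was the highest by more than 1 log2 unit and lay just under log2 5, so Cish was not tested with the other genes. With no filter on low values, under which 5.28% and 5.65% of 18194 genes were called for RIP-OVAhi and OCS/LPS against Rag, its differences were -1.62 (SE 0.21, limma adjusted p = 0.0385) and -1.94 (SE 0.21, adjusted p = 0.0269). The difference of Rag from naive in that fit was 1.79 (SE 0.21, adjusted p = 0.0613). Sizes at such levels depend on the background correction.

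Socs1, an inhibitor of JAKs downstream of interferon and common gamma chain receptors, was read by 1 probe set, at 1.59 to 1.61 on the 7 arrays. Socs2, an inhibitor best known from growth hormone signalling, was read by 6 probe sets, all at or below 2.89 on every array. The arrays gave no measurable level of either gene in any group, and differences between groups were not detectable.

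Of the PIM kinases, Pim1 rose on the Rag array. It read 8.24 and 7.76 in naive cells, 7.85 and 8.14 in RIP-OVAhi cells, 8.48 and 8.56 in OCS/LPS cells and 10.05 in Rag cells. Naive and RIP-OVAhi values overlapped, OCS/LPS lay slightly above both, and Rag stood above all 6 other arrays. The share of all tested genes with Rag so placed was not counted. Pim1 rose by 2.06 in Rag against naive (SE 0.24, limma adjusted p = 0.0143), or 4.16-fold. It was lower than Rag in RIP-OVAhi (difference -2.06, SE 0.24, adjusted p = 0.00456) and in OCS/LPS (difference -1.53, SE 0.24, adjusted p = 0.0116).

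The other neighbours in the order of Pim1 levels were not separated. Against the naive array of its own number the Rag array was higher by 1.82. OCS/LPS was above naive by 0.52 (SE 0.20, adjusted p = 0.0925) and above RIP-OVAhi, with a difference of RIP-OVAhi from OCS/LPS of -0.52 (SE 0.20, adjusted p = 0.266). RIP-OVAhi and naive had the same mean to 3 decimals, 7.997, with a 95% interval of the difference from -0.48 to 0.48. Without naive replicate 1 the rise in OCS/LPS was 0.76 and called (adjusted p = 0.0219). The call of Rag against naive was lost without RIP-OVAhi replicate 1 or 2 (adjusted p = 0.0687) or without OCS/LPS replicate 1 or 2 (0.0739), fits with fewer arrays to estimate the spread that the single Rag array borrows. It was also lost with no filter (0.0638) and without moderation (0.164). The call of OCS/LPS against Rag was lost without OCS/LPS replicate 1 or 2 (0.0797 and 0.0791), with no filter (0.0562) and without moderation (0.0998). A second Pim1 probe set, 1423006_at, was near background at 2.62 to 2.89, highest in Rag; the mean of both gave a rise of 1.12 (SE 0.15, adjusted p = 0.0232). The Rag array was also the one with the most myeloid and MHC class II transcripts, as given above, and their part in the Pim1 value was not tested.

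Pim2, the other PIM kinase of lymphocytes, varied less. It read 9.61 and 9.18 in naive cells, 9.01 and 9.25 in RIP-OVAhi cells, 8.98 and 9.12 in OCS/LPS cells and 9.78 in Rag cells. Rag was again the highest array, but the naive and RIP-OVAhi values overlapped. Its largest differences, -0.73 for OCS/LPS (SE 0.23, adjusted p = 0.0778) and -0.65 for RIP-OVAhi against Rag (SE 0.23, adjusted p = 0.107), did not pass the test. Without naive replicate 1 or 2 both were called (adjusted p = 0.0247 and 0.0356), and without naive replicate 2 the difference of OCS/LPS from naive was -0.56 and called (0.0387).

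**Figure D3:**
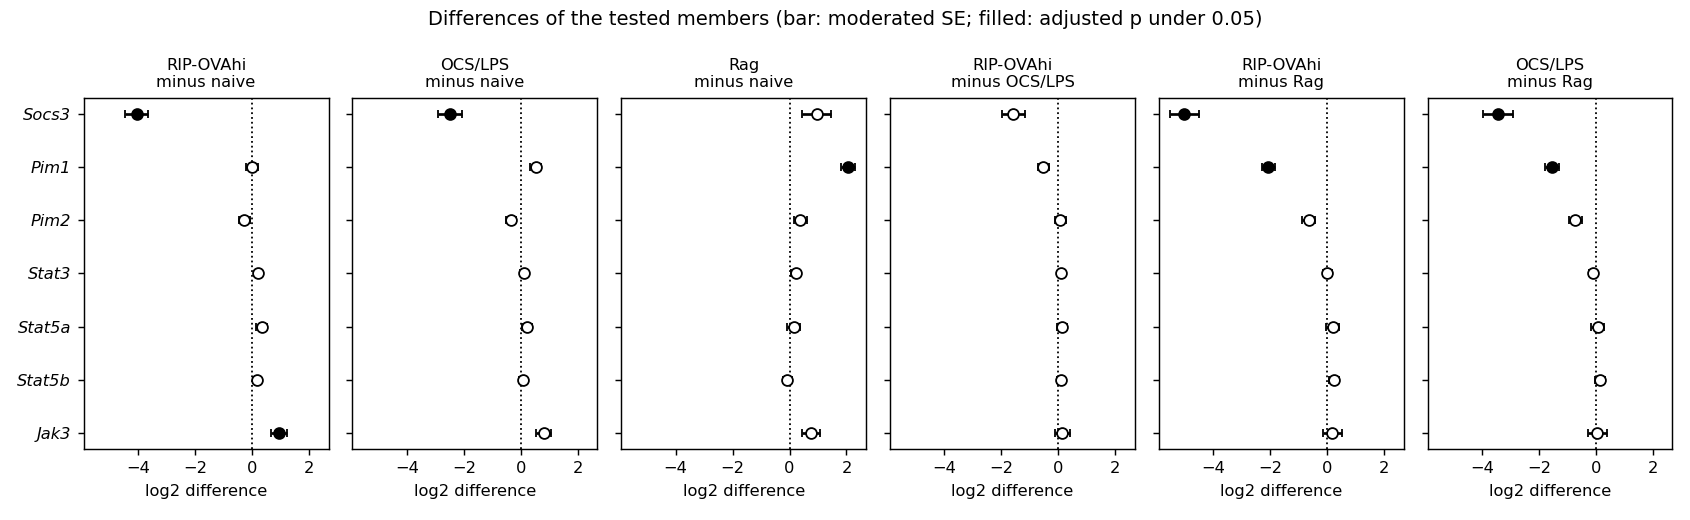
Log2 difference (x axis) of each of the 7 tested members (y axis) in the 6 comparisons; bars are moderated SE and filled points have an adjusted p under 0.05. Socs3 lies at -4.05 and -2.48 against naive and Pim1 at 2.06 for Rag against naive, while the Stat genes have open points near 0 in each panel.

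The STAT genes were nearly level. Stat3, the transducer of interleukin-6 and interleukin-10 family signals, read 9.19 and 9.26 in naive cells, 9.34 and 9.55 in RIP-OVAhi cells, 9.34 and 9.35 in OCS/LPS cells and 9.44 in Rag cells. Stat5a, one of the pair of closely related transducers of interleukin-2 and interleukin-7 signals, read 6.76 and 6.60 in naive cells, 7.25 and 6.79 in RIP-OVAhi cells, 6.96 and 6.83 in OCS/LPS cells and 6.83 in Rag cells. Stat5b, the other of that pair, read 9.69 and 9.51 in naive cells, 9.86 and 9.66 in RIP-OVAhi cells, 9.61 and 9.74 in OCS/LPS cells and 9.53 in Rag cells. None of the 3 genes was called in any comparison by the probe set that stood for it. Against naive, their differences in RIP-OVAhi were 0.22 for Stat3 (95% interval -0.10 to 0.53), 0.34 for Stat5a (-0.11 to 0.78) and 0.16 for Stat5b (-0.19 to 0.50). In OCS/LPS they were 0.12 (-0.20 to 0.43), 0.21 (-0.23 to 0.66) and 0.07 (-0.27 to 0.42). These intervals are for the probe set that stood for each gene. The widest of these intervals ends at 0.78. Ranges of group means as wide as that of Stat3 (0.22) were found in 90.1% of tested genes, and the median range over all tested genes was 0.59.

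The probe sets of these genes did not all read alike. Stat3 has 4, and 1459961_a_at read 8.277 and 7.999 in naive cells, 7.87 and 8.03 in RIP-OVAhi cells, 7.50 and 7.54 in OCS/LPS cells and 8.40 in Rag cells. In the fit of each probe set on its own it was lower in OCS/LPS than in naive (difference -0.62, SE 0.15, limma adjusted p = 0.0287) and than in Rag (difference -0.88, SE 0.19, adjusted p = 0.0321), in which 16.3% of probe sets were called. The 2 other Stat3 probe sets were not called or stayed near background. A second Stat5b probe set, 1422102_a_at, was near background except on OCS/LPS replicate 2, with 3.17 and 2.88 in naive cells, 4.20 and 4.05 in RIP-OVAhi cells, 3.49 and 5.18 in OCS/LPS cells and 2.93 in Rag cells. As a mean of both probe sets Stat5b differed from naive by 0.63 in RIP-OVAhi (SE 0.30, adjusted p = 0.169) and by 0.69 in OCS/LPS (SE 0.30, adjusted p = 0.125), not called but larger than by the brighter probe set. The second Stat5a probe set read 2.37 to 2.56.

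Jak3, the kinase bound to the common gamma chain, read higher on every array of divided cells and was called in RIP-OVAhi. It read 6.83 and 6.04 in naive cells, 7.38 and 7.38 in RIP-OVAhi cells, 7.10 and 7.38 in OCS/LPS cells and 7.19 in Rag cells. All 5 arrays of divided cells lay above both naive arrays, which differed from each other by 0.79. The share of all tested genes with such a gap was not counted, and Jak2 and Il10ra showed it as well. Jak3 rose by 0.95 in RIP-OVAhi against naive (SE 0.27, limma adjusted p = 0.044), or 1.93-fold. The differences from naive were 0.81 in OCS/LPS (SE 0.27, adjusted p = 0.0654) and 0.76 in Rag (SE 0.33, adjusted p = 0.301), neither called. The 3 groups of divided cells were not separated from each other, with differences of 0.05 to 0.19.

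The Jak3 difference depended on the naive arrays: it was 1.34 without naive replicate 1 and 0.55 without replicate 2, called both times. Between arrays of the same number it was 0.55 for number 1 and 1.34 for number 2. Without naive replicate 1 OCS/LPS and Rag were called too, at 1.20 and 1.15 (adjusted p = 0.0065 and 0.024). The call in RIP-OVAhi was lost without either RIP-OVAhi array (adjusted p = 0.189 and 0.194) or either OCS/LPS array (0.0931), with replicate number as a block (0.0517), with every probe set tested (0.0514), with no filter on low values (0.183) and without eBayes moderation (0.177). The naive arrays also had the largest Gapdh 3' to 5' differences; the part of RNA integrity was not tested. Jak3 rests on 1 probe set here, since 2 more are annotated to it together with Insl3 and were not used. The brighter of these read 7.36 and 7.35 on the naive arrays, 7.46 and 7.93 on the RIP-OVAhi arrays, 7.40 and 7.15 on the OCS/LPS arrays and 7.83 on the Rag array. Its naive values lay between those of OCS/LPS and below those of RIP-OVAhi and Rag, so it did not share the gap between naive and all divided cells; the other was near background.

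Genes with profiles most like those of the 4 members of widest range were found as those with the smallest root mean square distance between mean-centred log2 values over the 7 arrays, which share groups and normalization. Those nearest to Socs3 were Cd163l1 (distance 0.49), Prag1 (0.65) and Il7r (0.66). Cd163l1, a scavenger receptor gene, read 7.03 and 6.08 in naive cells, 2.30 and 3.18 in RIP-OVAhi cells, 4.96 and 5.01 in OCS/LPS cells and 8.61 in Rag cells. Il7r, the interleukin-7 receptor chain, read 12.94 and 12.78, 9.69 and 9.30, 10.52 and 10.44, and 13.01 in the same groups. Prag1, a pseudokinase scaffold gene, read 9.04 and 9.20, 5.16 and 5.54, 7.16 and 7.32, and 8.84. RIP-OVAhi was lowest for all 3, as it was for Socs3; Rag was highest for Cd163l1 and Il7r but lay below naive for Prag1. These genes were chosen for their likeness to Socs3.

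Nearest to Pim1 were Fzd5 (0.20), a Wnt receptor gene, F2r (0.22), the thrombin receptor gene, and Dennd4a (0.31). F2r read 10.67 and 10.69 in naive cells, 10.41 and 10.35 in RIP-OVAhi cells, 10.97 and 10.82 in OCS/LPS cells and 12.42 in Rag cells. Nearest to Jak3 were Unc13d (0.07), needed for release of cytotoxic granules, Txndc16 (0.09) and Vasp (0.11), an actin regulator. Nearest to Pim2 were Tnks (0.05), Suco (0.07) and Nktr (0.07).

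The rest of the pathway was read from lists of genes by role. Of the 5 tested further JAK and STAT genes, Jak2, the kinase of interferon-gamma and haematopoietic cytokine receptors, was called in RIP-OVAhi against naive. It read 9.84 and 9.92 in naive cells and 10.32 and 10.51 in RIP-OVAhi cells, a rise of 0.53 (SE 0.13, limma adjusted p = 0.0253). Jak2 also lay above naive in OCS/LPS cells, at 10.28 and 10.24, and in Rag cells, at 10.26, without a call. RIP-OVAhi and OCS/LPS were not separated (difference 0.16, SE 0.13, adjusted p = 0.625). Limma called 0 of the 5 genes in OCS/LPS against naive, with 2 at an unadjusted p under 0.05, and 0 in Rag, with 0 at that level. Stat4, the transducer of interleukin-12, read 11.26 to 11.36 in naive and 11.70 on both OCS/LPS arrays and was not among the calls. The median difference of the 5 from naive was 0.17 in RIP-OVAhi and 0.09 in OCS/LPS, against 0.06 and 0.08 over all tested genes.

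Of the 5 further SOCS and PIM genes, all tested, Pim3 was called in RIP-OVAhi and Pim3 and Socs5 in OCS/LPS, all lower; of all tested genes 11.6% and 12.3% were called lower. Pim3, the remaining PIM kinase, read 8.27 and 8.60 in naive cells, 7.50 and 7.80 in RIP-OVAhi cells, 7.46 and 7.35 in OCS/LPS cells and 8.15 in Rag cells. It fell by 0.79 in RIP-OVAhi (SE 0.17, adjusted p = 0.0201) and by 1.03 in OCS/LPS (SE 0.17, adjusted p = 0.0075). Socs5, a SOCS gene linked to interleukin-4 and growth factor receptors, read 8.46 and 9.24 in naive cells, 8.33 and 8.16 in RIP-OVAhi cells, 7.56 and 7.64 in OCS/LPS cells and 8.31 in Rag cells. It fell by 1.25 in OCS/LPS (SE 0.26, adjusted p = 0.015), and its difference in RIP-OVAhi was -0.61 (SE 0.26, adjusted p = 0.132). The median of the 5 was -0.20 in RIP-OVAhi and -0.29 in OCS/LPS.

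Of 10 tested further inhibitors, phosphatases and PIAS proteins among them, 0 rose and 2 fell in each of the 2 antigen groups, where 29.6% (RIP-OVAhi) and 32.9% (OCS/LPS) of all tested genes were called. Usp18, which turns down type I interferon receptor signalling, read 8.10 and 7.98 in naive cells, 7.47 and 7.70 in RIP-OVAhi cells, 6.77 and 6.73 in OCS/LPS cells and 8.29 in Rag cells. It fell by 1.29 in OCS/LPS (SE 0.13, adjusted p = 0.00138) and by 0.46 in RIP-OVAhi (SE 0.13, adjusted p = 0.0484). Between RIP-OVAhi and OCS/LPS, where 2.91% of all tested genes were called, Usp18 was the single gene of this list called. It was higher by 0.83 in RIP-OVAhi (SE 0.13, adjusted p = 0.0361), and 3 of the list had an unadjusted p under 0.05. Pias1, an inhibitor of STAT binding to DNA, differed from naive by -0.51 in RIP-OVAhi (SE 0.12, adjusted p = 0.0227) and by -0.42 in OCS/LPS (SE 0.12, adjusted p = 0.0379). The median of the 10 was 0.0095 in RIP-OVAhi and 0.15 in OCS/LPS. In Rag limma called 0 of the 10, where 2.73% of all tested genes were called, and 1 of the 10 had an unadjusted p under 0.05.

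**Figure D4:**
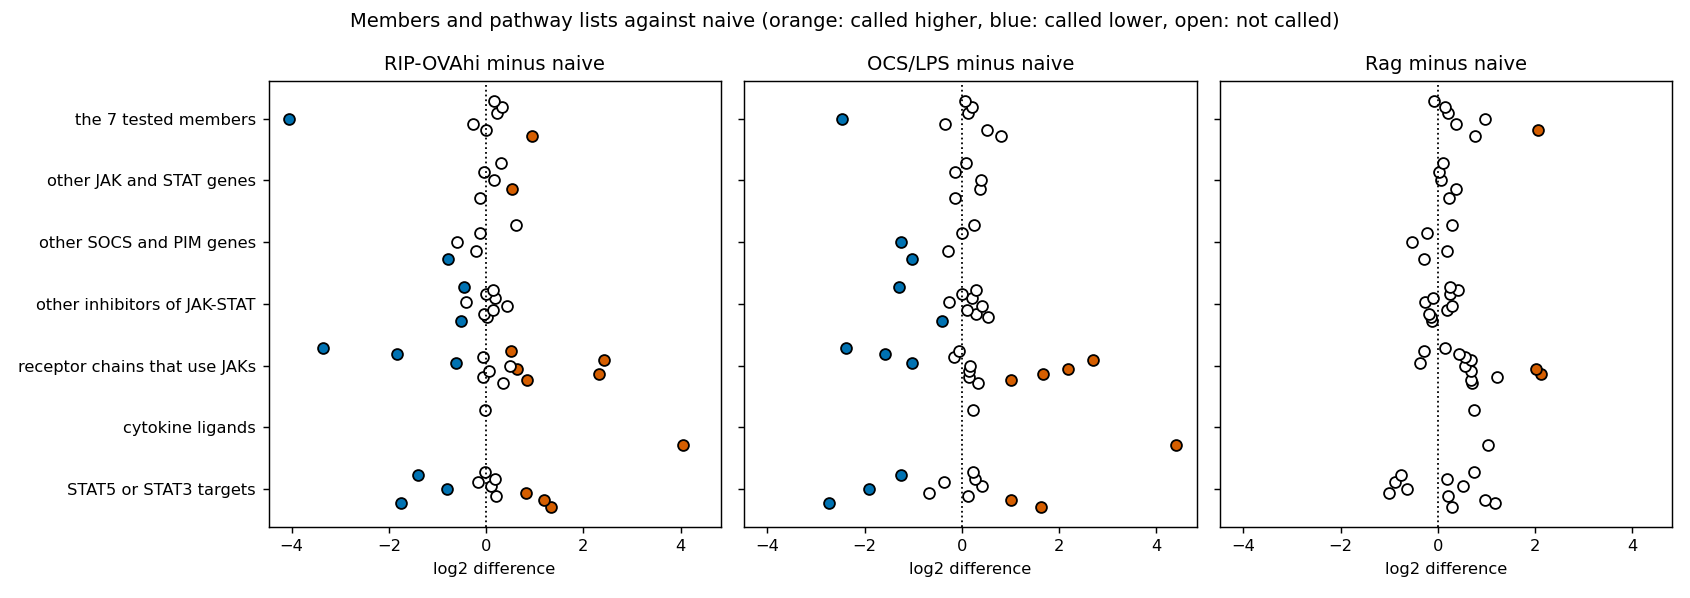
Log2 difference from naive (x axis) of the tested members and of the tested genes of 6 pathway lists (y axis) in RIP-OVAhi, OCS/LPS and Rag; each point is a gene, orange where called higher, blue where called lower, open where not called. Receptor chains and STAT target genes have calls on both sides in the 2 antigen groups.

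Upstream, 13 of the 19 receptor chains listed were tested, of which 5 rose and 3 fell in RIP-OVAhi cells, 4 rose and 3 fell in OCS/LPS cells, and 2 rose and 0 fell in Rag cells. Over all tested genes 29.6%, 32.9% and 2.73% were called in these comparisons. Their median difference from naive was 0.35 for RIP-OVAhi cells, 0.15 for OCS/LPS cells and 0.68 for Rag cells. Il12rb1, a chain of the interleukin-12 receptor, read 3.46 and 3.50 in naive cells, 4.17 and 4.07 in RIP-OVAhi cells, 5.59 and 5.75 in OCS/LPS cells and 5.49 in Rag cells. It was lower in RIP-OVAhi than in OCS/LPS by a difference of -1.55 (SE 0.12, adjusted p = 0.0039), although the RIP-OVAhi and naive values were near background. Il12rb1 reached log2 5 only on the OCS/LPS and Rag arrays and entered the test through them. Il7r differed from naive by -3.36 in RIP-OVAhi and by -2.38 in OCS/LPS (SE 0.17 each), and was lower in RIP-OVAhi than in OCS/LPS too (difference -0.98, SE 0.17, adjusted p = 0.0426). Il10ra, the ligand-binding chain for interleukin-10, rose by 2.32 in RIP-OVAhi cells (SE 0.13), by 1.67 in OCS/LPS cells (SE 0.13) and by 2.12 in Rag cells (SE 0.15). Il2rb, shared by interleukin-2 and interleukin-15, rose by 2.43 in RIP-OVAhi and 2.70 in OCS/LPS (SE 0.22 each), and its difference in Rag was 0.68 (SE 0.27, adjusted p = 0.268). Of 10 cytokine genes only Ifng and Osm were tested. Ifng, the interferon-gamma gene, read 2.79 and 3.66 on the naive arrays, 6.80 and 7.73 on the RIP-OVAhi arrays, 7.81 and 7.43 on the OCS/LPS arrays and 4.25 on the Rag array. It was called higher in RIP-OVAhi than in naive cells, by 4.04, and in OCS/LPS, by 4.40. Ifng reached log2 5 only on the RIP-OVAhi and OCS/LPS arrays, so it entered the test through the groups where it was high. The naive values were near background, where sizes depend on the background correction. Il2, Il4, Il6, Il7, Il10, Il15, Il21 and Lif read 3.12 or lower on every array, so no level of these ligands could be measured in any group.

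Downstream, 11 of 12 genes known as STAT5 or STAT3 targets were tested, and 3 rose and 3 fell in RIP-OVAhi cells, while 2 rose and 3 fell in OCS/LPS cells, beside 29.6% and 32.9% called over all tested genes. Their median difference from naive was 0.11 for RIP-OVAhi cells, 0.13 for OCS/LPS cells and 0.21 for Rag cells. Bcl6, a repressor that opposes STAT5 programmes, read 7.89 and 7.62 in naive cells, 8.84 and 8.32 in RIP-OVAhi cells, 6.99 and 7.14 in OCS/LPS cells and 6.75 in Rag cells. It was higher in RIP-OVAhi than in OCS/LPS by 1.51 (SE 0.21, limma adjusted p = 0.0236), than in Rag by 1.83 (SE 0.26, adjusted p = 0.00781) and than in naive by 0.83 (SE 0.21, adjusted p = 0.0307). Ccnd2, cyclin D2, read 12.44 and 12.64 in naive cells, 11.72 and 11.77 in RIP-OVAhi cells, 10.76 and 10.49 in OCS/LPS cells and 11.90 in Rag cells. Its difference from naive was -0.79 in RIP-OVAhi (SE 0.15, adjusted p = 0.0119) and -1.91 in OCS/LPS (SE 0.15, adjusted p = 0.00044), and the RIP-OVAhi level was above that of OCS/LPS by 1.12 (SE 0.15, adjusted p = 0.0209).

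Bcl2, the survival gene, read 12.26 and 11.88 in naive cells, 10.50 and 10.15 in RIP-OVAhi cells, 9.14 and 9.51 in OCS/LPS cells and 13.24 in Rag cells. Rag was thus the highest array for Bcl2, as it was for Socs3, Pim1, Pim2 and Cish, but its difference from naive was not called (1.17, SE 0.26, adjusted p = 0.0914). Bcl2 and Myc, the growth-promoting factor, were called lower than naive in both antigen groups, Bcl2 by differences of -1.74 and -2.75 (SE 0.22 each) and Myc by -1.40 and -1.25 (SE 0.18 each). Batf, an AP-1 family factor, rose by 1.34 in RIP-OVAhi (SE 0.22) and 1.63 in OCS/LPS (SE 0.22). Bcl2l1 was also called higher than naive in both antigen groups. Its difference was 1.19 in RIP-OVAhi (SE 0.22, limma adjusted p = 0.0116) and 0.999 in OCS/LPS (SE 0.22, adjusted p = 0.0185). Il2ra, a classic STAT5 target, stayed between 2.54 and 2.64 on every array. In Rag against naive limma called 0 of the 11 targets, where 2.73% of all tested genes were called. Before adjustment 7 of the 11 had a p under 0.05. The share of all tested genes at that unadjusted level was not counted in any comparison, so 7 of 11 has no background to set it against. These 7 went in both directions. Bcl6 (difference -0.998), Junb (-0.89), Myc (-0.75) and Ccnd2 (-0.64) were lower in Rag than in naive cells. Bcl2 (1.17), Bcl2l1 (0.97) and Osm (0.75) were higher.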

How the data were processed

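RNA of sorted OT-I cells was labelled in 2 rounds of amplification and hybridised to 7 Affymetrix mouse arrays. The deposited log2 values were made by the authors with GCRMA, per the submitters' processing notes; no version is known here. As a method GCRMA includes quantile normalization, under which a shift shared by most genes cannot be seen; whether all arrays were processed together is not stated. The values were used without further normalization.

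Genes were named from the platform annotation: 34958 of 45101 probe sets had 1 symbol. Group means were fitted to all arrays by lmFit and eBayes of limma 3.58.1 (R 4.3.3), which left 3 residual degrees of freedom. The Rag array was assumed to vary like the others. Two-sided p-values received Benjamini-Hochberg adjustment over 8203 genes, and genes under 0.05 count as called. SE and 95% intervals are moderated. The number of arrays limits the precision. Alternatives are given in the closing section, and the fit was tested on simulated data.

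The members and lists were chosen with earlier results of these data known. From each list, the 3 called genes with the largest difference were to be named. This held for RIP-OVAhi against naive, OCS/LPS against naive and RIP-OVAhi against OCS/LPS. Outside this rule, Stat4, Bcl2l1, Junb, Osm, Il2ra and the untested ligands were named after their values were seen. Some genes of these lists were not analysed here.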

Additional observations from a re-analysis of the deposited data

How the results depend on the processing

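The 7 tested members were recomputed under the alternatives listed for each comparison, except that Stat5a, as a mean of its probe sets, fell under the filter and has no value there. Of these values 548 kept direction and side of the threshold, 28 lost a call, 9 gained one and 18 changed sign. With replicate number as a block, 1 member in place of 2 was called in RIP-OVAhi against naive (Jak3, at 0.95, had an adjusted p of 0.0517) and the other counts did not change; replicate differences of the groups correlated across genes at r = 0.35 (naive with RIP-OVAhi), 0.13 (naive with OCS/LPS) and 0.32 (RIP-OVAhi with OCS/LPS), which with 2 numbers does not establish a pairing. In RIP-OVAhi against naive 1 member was also called with no filter, with every probe set tested and without moderation. In OCS/LPS and in Rag against naive the count of 1 went to 0 with no filter and without moderation. Without moderation it was 0 in both comparisons with Rag, in place of 2, and with no filter 1 in OCS/LPS against Rag. That 1 was Cish, with Socs3 and Pim1 both lost (adjusted p = 0.0676 and 0.0562); in RIP-OVAhi against Rag no filter gave 3, with Cish added. Leaving out single arrays gave 1 to 2 calls in RIP-OVAhi against naive, 0 to 3 in OCS/LPS against naive, 0 to 2 in Rag against naive, 0 to 1 in RIP-OVAhi against OCS/LPS, 2 to 3 in RIP-OVAhi against Rag and 0 to 3 in OCS/LPS against Rag. The cause was not tested; fewer arrays leave fewer degrees of freedom, and no filter tests more genes.

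None of the values that changed sign was called. With arrays centred on their medians, Pim1 in RIP-OVAhi against naive was 0.056 and Stat3 in RIP-OVAhi against Rag -0.0071. As a mean of probe sets, Stat3 was -0.026 in RIP-OVAhi against naive, -0.17 in OCS/LPS against naive and -0.20 in RIP-OVAhi against Rag, and Stat5b was -0.063 in RIP-OVAhi against OCS/LPS. With the replicate block Stat3 in RIP-OVAhi against Rag was -0.046. Leaving out single arrays gave -0.24 to 0.24 for Pim1 in RIP-OVAhi against naive, -0.020 to 0.16 for Stat5b in OCS/LPS and -0.16 to 0.019 in Rag against naive. In RIP-OVAhi against OCS/LPS it gave -0.042 to 0.19 for Pim2, -0.0041 to 0.20 for Stat3, -0.10 to 0.35 for Stat5a and -0.013 to 0.19 for Stat5b. Against Rag it gave -0.10 to 0.11 for Stat3 and -0.036 to 0.42 for Stat5a in RIP-OVAhi, and -0.089 to 0.19 for Jak3 in OCS/LPS.

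Over all genes, calls fell without moderation from 2429 to 1075, 2698 to 1267, 224 to 19, 239 to 26, 1373 to 288 and 1483 to 244, in the order of the counts above, and from 239 to 105 with no filter. Leaving out single arrays gave as few as 807, 1018, 59, 32, 370 and 397; without naive replicate 1, Rag against naive had 1622, and without either naive array the last 3 comparisons had 416, 2549 and 2833. Signal near background left Socs1, Socs2 and Cish out of the tested genes.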
